A study of Rattus norvegicus with 6 samples.

Results

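The genes described here carry out cholesterol synthesis, sensing, uptake, esterification and efflux. They were chosen by name, as 32 symbols on a list written with earlier results of these data known, and all 32 were found among the 18825 genes of the expression table. By role they were 7 genes of the mevalonate pathway, 3 of squalene and lanosterol formation, 8 of the steps from lanosterol to cholesterol, 5 of sterol sensing, 4 of transport and uptake, 1 of esterification and 4 of efflux. Every one of the 32 had enough reads to be tested.

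The RNA came from full-thickness wounds of the dorsal skin of male Sprague–Dawley rats made diabetic by a diet rich in fat and sucrose and then streptozotocin, which kills insulin-producing beta cells. The DST-MNs group (3 libraries) had been treated with microneedles that held spheroids of dental pulp stem cells regulated by spermidine, a polyamine, and TGF-β3, a growth factor. The control group (3 libraries) were diabetic wounds left untreated, so the microneedles, the cells, spermidine and TGF-β3 cannot be told apart in this comparison. The labels name the libraries biological replicates and state neither the day of collection nor the species of the dental pulp cells, and a nondiabetic group was not analysed here.

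Cells build cholesterol from acetyl-CoA through mevalonate, farnesyl diphosphate, squalene and lanosterol. When sterol in the endoplasmic reticulum is low, SCAP escorts the SREBP transcription factors to the Golgi, where they are cut and freed to switch on the enzymes of synthesis. When sterol is plentiful, INSIG proteins hold SCAP back, and oxysterols activate the LXR receptors, which switch on export of cholesterol. In skin, keratinocytes make cholesterol for the lipid barrier, sebocytes make it for sebum, and macrophages take up and export the cholesterol of dead cells.

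SREBP works on promoters together with NF-Y, a factor that binds the sequence CCAAT, so the start regions of the genes on which the results turn are shown before their values. The sequences are the 250 bases before the annotated start, from RefSeq on the rat build GRCr8, given 5′ to 3′ on the strand of the gene. The expression table was made with another build, so these coordinates apply to the promoter sequences only. Capitals mark CCAAT, or ATTGG where the box lies on the opposite strand, and in Fdps also the run TCACACGAG, the core of its known sterol response element. Hsd17b7, Hmgcs1, Fdps and Idi1 are enzymes with higher levels in treated wounds, and Insig1 is the sensor gene that stood the other way.
Hsd17b7, GRCr8 chr13:84722755-84723004, minus strand: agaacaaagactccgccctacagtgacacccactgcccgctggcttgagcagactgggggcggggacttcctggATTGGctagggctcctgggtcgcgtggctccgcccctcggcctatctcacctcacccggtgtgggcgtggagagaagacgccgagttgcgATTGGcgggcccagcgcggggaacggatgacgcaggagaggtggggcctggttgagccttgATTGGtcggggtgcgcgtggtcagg
Hmgcs1, GRCr8 chr2:53382054-53382303, plus strand: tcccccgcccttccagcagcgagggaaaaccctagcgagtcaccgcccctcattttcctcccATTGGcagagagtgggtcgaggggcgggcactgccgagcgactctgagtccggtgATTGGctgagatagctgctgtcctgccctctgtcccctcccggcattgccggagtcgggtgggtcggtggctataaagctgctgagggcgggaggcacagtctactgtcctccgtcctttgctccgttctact
Fdps, GRCr8 chr2:176804817-176805066, minus strand: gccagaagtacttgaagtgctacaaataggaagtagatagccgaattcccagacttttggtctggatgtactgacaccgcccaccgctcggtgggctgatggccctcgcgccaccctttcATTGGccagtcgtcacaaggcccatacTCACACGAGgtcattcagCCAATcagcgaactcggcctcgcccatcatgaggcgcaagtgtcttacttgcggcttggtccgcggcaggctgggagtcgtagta
Idi1, GRCr8 chr17:66547525-66547774, minus strand: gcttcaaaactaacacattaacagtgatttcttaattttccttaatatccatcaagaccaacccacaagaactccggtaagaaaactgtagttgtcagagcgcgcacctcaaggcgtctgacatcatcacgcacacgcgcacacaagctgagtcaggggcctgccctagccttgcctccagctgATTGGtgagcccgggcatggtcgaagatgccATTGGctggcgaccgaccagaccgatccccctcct
Insig1, GRCr8 chr4:8057770-8058019, minus strand: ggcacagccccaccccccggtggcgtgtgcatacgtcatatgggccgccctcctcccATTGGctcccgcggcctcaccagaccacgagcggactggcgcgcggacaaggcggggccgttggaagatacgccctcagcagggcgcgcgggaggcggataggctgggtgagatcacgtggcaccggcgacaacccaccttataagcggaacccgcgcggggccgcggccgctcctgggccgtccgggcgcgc

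The Fdps element began 103 bases before the start and lay between boxes that began 130 and 85 bases before it. Hsd17b7 had boxes 176, 86 and 25 bases before its start, Hmgcs1 188 and 133, Idi1 66 and 35, and Insig1 a single one 193 bases before. Promoters were listed for 27 of the 32 genes. A CCAAT box on either strand was present in 12 of 15 synthesis enzymes (80.0%) and 7 of 12 other members (58.3%), against 36.7% of the 11684 tested genes with a promoter. The GC box GGGCGG, bound by Sp1, was found on either strand in 13 of the 15 enzymes (86.7%) and 9 of the 12 others (75.0%), against 56.8% of all. The common sterol response core TCACNCCAC was found on either strand in 0 of the 27 and in 1.04% of all. The Fdps form TCACNCGAG was found in Fdps and Srebf1, 2 of the 27, and in 0.582% of all. These are matches of letters, and ATTGG and GGGCGG can share their end letters.

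By the chi-square of their counts per degree of freedom, over genes with at least 10 counts in a pair of libraries, control replicate 1 stood nearer to DST-MNs replicates 2 and 3 (34.1 and 41.95) than to control replicates 2 and 3 (49.2 and 68.4), so the counts over the 32 genes are also given without it.

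In the treated wounds all 18 enzymes of cholesterol synthesis had a level above that of the controls on average, with a median log2 change of 0.82, while the 14 genes of sensing, transport, storage and export had a median of 0.08. Over all 14427 genes tested the median was 0.00. Of the 32 genes 1 passed the threshold and rose, the sterol ketoreductase gene Hsd17b7, and none fell (quasi-likelihood test of edgeR at an adjusted p below 0.05). Over all genes 0.658% rose and 0.118% fell by that rule. DESeq2, a test that called far more genes, had 13 of the 18 enzymes as higher and none of the 14 other members, where it had 4.36% of all genes as higher. It had none of the 32 as lower, against 2.73% of all genes. In the bulk tissue, more cells of a type and more RNA per cell cannot be told apart, nor can fewer cells and less RNA per cell.

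At an unadjusted p below 0.05, 14 of the 18 enzymes were higher and none lower, against 9.8% and 6.88% of all genes. The groups did not overlap for 14 of the enzymes, each with all treated libraries above all controls, where 12.9% of all genes did so. The 4 enzymes whose groups overlapped were Mvk, Pmvk, Sc5d and Dhcr7. These are counts in normalised CPM, where of the 14 other members Srebf1 alone had every treated library above every control. In TPM, where 21.1% of all genes had every treated library above every control, Pmvk, Soat1 and Nr1h2 did so too. The direction of all 18 was the same with each way of scaling tried. Without DST-MNs replicate 1, the log2 changes of Mvk and Sc5d were -0.013 and -0.13, and the other 16 enzymes stayed above 0. Without control replicate 1 all 18 stayed above 0, with a median of 0.70, and the 14 other members had a median of 0.14. Hmgcs1 and Lss then passed the threshold in edgeR and Hsd17b7 did not, which made 2 of the 32 higher, where 2.14% of all genes were.

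**Figure D1:**
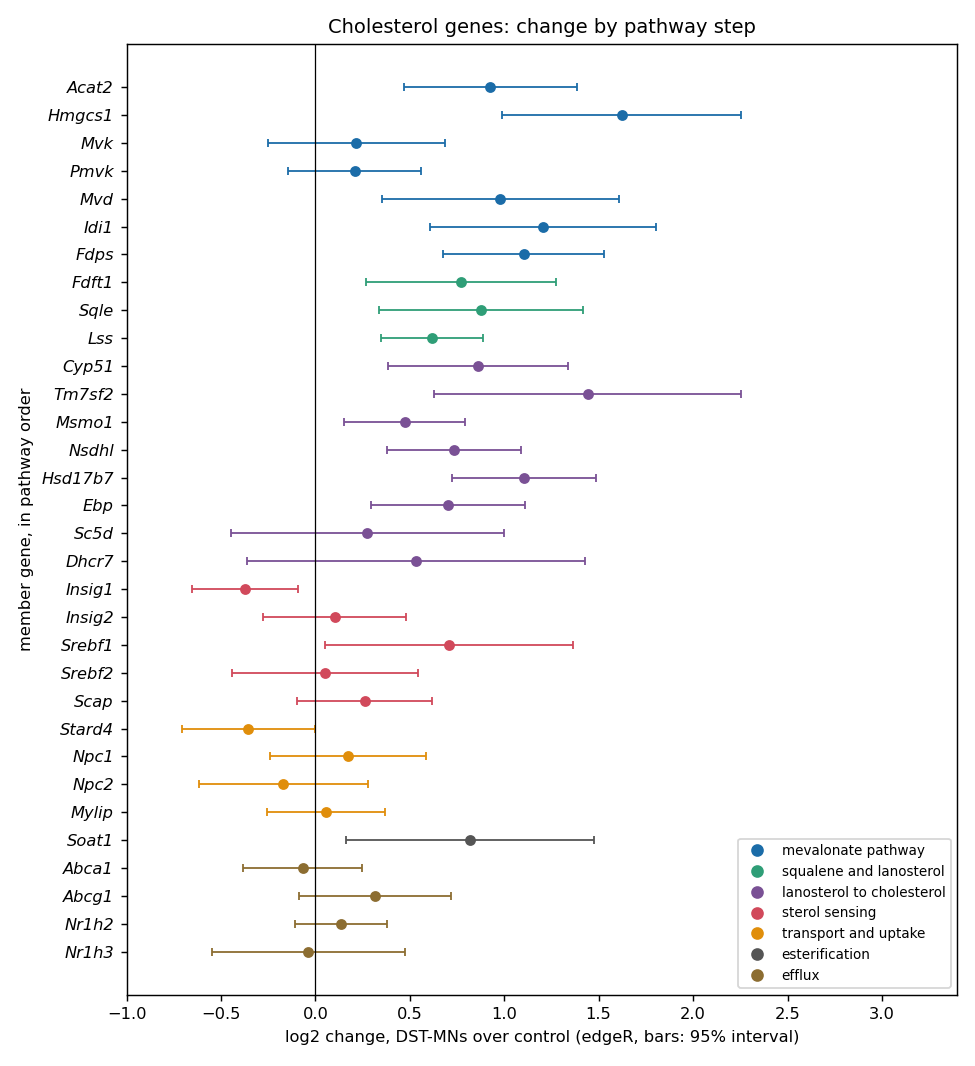
The log2 change of DST-MNs over control (horizontal axis) is drawn for the 32 genes in pathway order, with bars for the 95% interval from edgeR and colours for the steps. All 18 synthesis enzymes lie to the right of 0, from 0.21 for Pmvk to 1.62 for Hmgcs1, while the sensing, transport and efflux genes lie on both sides of it.

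The mevalonate pathway makes isoprenoid units from acetyl-CoA. Values by library are normalised CPM, that is, counts brought to one shared library size through the TMM factors of edgeR, in the order of replicates 1, 2 and 3. Hmgcs1, which condenses acetoacetyl-CoA with acetyl-CoA to HMG-CoA, had 257, 206 and 268 CPM in DST-MNs wounds, against 53.1, 77.2 and 107 CPM in control wounds. The lowest treated library thus lay well above the highest control, and relative to their mean the controls were the more spread out. Its log2 change was 1.62 (SE 0.27, 95% interval 0.99 to 2.26), or 3.08-fold, which was the largest of the 32 and missed the threshold in edgeR (adjusted p = 0.0584) but not in DESeq2 (adjusted p = 2.5e-07). Without control replicate 1 it passed in edgeR too (log2 change 1.40, adjusted p = 0.0383), and with that library kept but another left out its adjusted p ran up to 0.229.

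Fdps, the synthase of farnesyl diphosphate, had 128, 84.0 and 127 CPM in DST-MNs wounds, against 51.1, 52.6 and 54.1 CPM in control wounds. The controls lay close together, and DST-MNs replicate 2 was the lowest of the treated libraries. The log2 change was 1.10 (SE 0.18, edgeR adjusted p = 0.0565), and 1.29 without DST-MNs replicate 2 (edgeR adjusted p = 0.0351). Idi1, which isomerises isopentenyl diphosphate, had 59.9, 64.6 and 85.5 CPM in DST-MNs wounds, against 21.3, 30.0 and 39.7 CPM in control wounds. Its groups did not overlap, and its log2 change was 1.21 (SE 0.25, edgeR adjusted p = 0.108; 0.0419 with the replicate number as a block).

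Acat2, the cytosolic thiolase that opens the pathway, averaged 54.4 ± 8.50 CPM in DST-MNs wounds and 28.6 ± 5.79 CPM in control wounds (SD, n = 3 each). Its counts were fractional in all 6 libraries, as where reads are shared with another gene, so its level is less certain. Mvd, the decarboxylase that yields isopentenyl diphosphate, averaged 25.3 ± 7.95 CPM in DST-MNs wounds and 12.8 ± 1.89 CPM in control wounds. The log2 changes were 0.93 (SE 0.19) for Acat2 and 0.98 (SE 0.26) for Mvd, with no overlap of groups in either (edgeR adjusted p = 0.107 and 0.158).

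The kinases between these steps had overlapping groups. Mvk, mevalonate kinase, had 28.0, 18.1 and 19.3 CPM in DST-MNs wounds, against 19.8, 17.5 and 19.1 CPM in control wounds. Only DST-MNs replicate 1 lay above the controls. Pmvk, phosphomevalonate kinase, had 22.7, 27.1 and 30.1 CPM in DST-MNs wounds, against 24.3, 23.7 and 21.1 CPM in control wounds. The 95% intervals of the log2 changes were -0.25 to 0.68 for Mvk and -0.14 to 0.56 for Pmvk, so changes as large as that of Hmgcs1 lay outside both. Per transcript length, the ratio of Hmgcs1 to Mvk in TPM was 4.36, 5.39 and 6.70 in DST-MNs wounds, against 1.29, 2.13 and 2.69 in control wounds.

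The next 3 enzymes commit the pathway to sterols. Fdft1 joins farnesyl units to squalene, Sqle adds the epoxide and Lss closes the rings to lanosterol. Lss had 93.2, 99.1 and 100.8 CPM in DST-MNs wounds, against 70.8, 58.5 and 62.0 CPM in control wounds. The treated libraries lay within a narrow band above all controls, and the log2 change was 0.62 (SE 0.11, edgeR adjusted p = 0.0796; 0.0490 without control replicate 1). Sqle had 56.2, 31.99 and 42.3 CPM in DST-MNs wounds, against 20.3, 23.8 and 26.9 CPM in control wounds. Fdft1 had 73.1, 49.2 and 59.1 CPM in DST-MNs wounds, against 28.8, 33.2 and 44.3 CPM in control wounds. Groups did not overlap for Sqle (log2 change 0.88, SE 0.23) or Fdft1 (0.77, SE 0.21), and DST-MNs replicate 2 was the lowest treated library for both (edgeR adjusted p = 0.155 and 0.161).

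**Figure D2:**
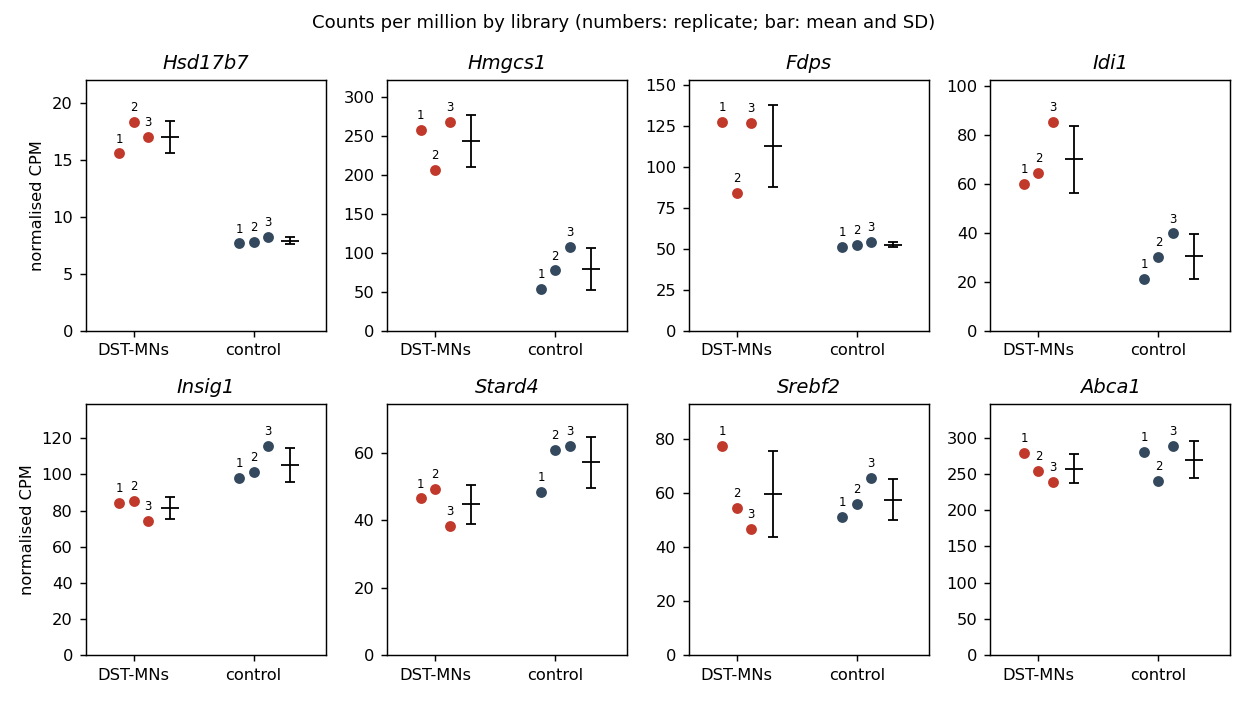
Normalised CPM (vertical axes, from 0) of 8 genes in the 3 DST-MNs libraries (red) and the 3 control libraries (dark), with replicate numbers and a bar for the mean and SD. For Hsd17b7, Hmgcs1, Fdps and Idi1 every treated library lies above every control, for Insig1 every treated library lies below, and for Stard4, Srebf2 and Abca1 the groups overlap.

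Of the 8 genes from lanosterol to cholesterol, Hsd17b7, which reduces the keto group left after demethylation, was the gene that passed the threshold. It had 15.5, 18.3 and 17.0 CPM in DST-MNs wounds, against 7.65, 7.76 and 8.24 CPM in control wounds. Both groups were tight and lay far apart. Hsd17b7 rose by a log2 change of 1.10 (SE 0.16, 95% interval 0.72 to 1.48), or 2.15-fold (edgeR adjusted p = 0.041). The call did not hold with any 1 library left out, when the change ran from 1.05 to 1.15 and the edgeR adjusted p from 0.0502 without control replicate 1 to 0.198 without control replicate 2. It had the lowest TPM of the 32 in treated wounds, 6.76, and 3.09 TPM in control wounds.

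Tm7sf2, a sterol reductase of the inner nuclear membrane and endoplasmic reticulum, had 7.57, 4.48 and 9.50 CPM in DST-MNs wounds, against 2.24, 2.72 and 2.95 CPM in control wounds. Its log2 change was the second highest at 1.44, with a wide interval of 0.63 to 2.25 (edgeR adjusted p = 0.131). Cyp51, the demethylase that acts on lanosterol itself, had 158, 136 and 152 CPM in DST-MNs wounds, against 59.0, 88.4 and 98.4 CPM in control wounds. Its groups did not overlap (log2 change 0.86, SE 0.20, edgeR adjusted p = 0.131). Msmo1 and Nsdhl then remove the methyl groups with Hsd17b7. Nsdhl averaged 36.9 ± 5.10 CPM in DST-MNs wounds and 22.2 ± 1.95 CPM in control wounds, and Msmo1 averaged 55.0 ± 2.71 CPM in DST-MNs wounds and 39.6 ± 5.93 CPM in control wounds. Their log2 changes were 0.73 (SE 0.15) and 0.47 (SE 0.13), again with no overlap of groups (edgeR adjusted p = 0.102 and 0.17).

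Ebp, the isomerase of the sterol ring double bond, had 26.9, 28.7 and 39.3 CPM in DST-MNs wounds, against 19.6, 19.0 and 19.7 CPM in control wounds (log2 change 0.70, SE 0.17, edgeR adjusted p = 0.137). The last enzymes of the route had overlapping groups. Sc5d, the sterol desaturase, had 41.3, 21.6 and 20.7 CPM in DST-MNs wounds, against 20.2, 20.7 and 28.2 CPM in control wounds. Dhcr7, the reductase that yields cholesterol, had 34.7, 12.8 and 17.99 CPM in DST-MNs wounds, against 12.4, 14.4 and 18.5 CPM in control wounds. For both, DST-MNs replicate 1 stood far above the other libraries and the rest of the treated libraries lay among the controls. Without it the log2 change of Dhcr7 was 0.02, against 0.53 with all libraries, and that of Sc5d was -0.13, against 0.27.

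The 13 enzymes that rose with DESeq2 were Acat2, Hmgcs1, Mvd, Idi1, Fdps, Fdft1, Sqle, Lss, Cyp51, Tm7sf2, Nsdhl, Hsd17b7 and Ebp. Their DESeq2 log2 changes ran from 0.61 to 1.62 and their DESeq2 adjusted p from 2.5e-07 to 0.0296. The limma-voom test called Hsd17b7 alone among the 32, where it had 0.555% of all genes as higher. With the replicate number as a block edgeR called Idi1 alone, where it had 0.714% of all genes as higher, and Hsd17b7 had an edgeR adjusted p of 0.0906.

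Of the 5 sensing genes, 0 passed the threshold in either direction with edgeR or DESeq2. At an unadjusted p below 0.05, 1 was higher and 1 lower. Over the 14 members that are not synthesis enzymes, 2 were higher and 2 lower by that rule. Of all genes 9.8% were higher and 6.88% lower. Insig1, the retention protein that is itself switched on by SREBP, had 84.2, 85.4 and 74.4 CPM in DST-MNs wounds, against 98.3, 101.5 and 116 CPM in control wounds. All treated libraries lay below all controls in CPM, while in TPM the groups overlapped. Of the 32 genes Insig1 alone lay so in CPM, where 1448 of all 14427 genes tested did. The log2 change was -0.37 (SE 0.12, 95% interval -0.65 to -0.09), which missed the threshold (edgeR adjusted p = 0.202, DESeq2 adjusted p = 0.0686). It stayed below 0 with every scaling and every library left out, between -0.20 on the TPM scale and -0.42 without control replicate 1. Its counts were fractional in 3 of the 6 libraries.

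Hmgcs1 and Insig1 had the highest and the lowest log2 change of the 32, 1.62 and -0.37. Their ratio within each library thus restates that difference and is not a separate result. The ratio of Hmgcs1 to Insig1 in TPM was 2.36, 1.90 and 2.91 in DST-MNs wounds, against 0.44, 0.61 and 0.73 in control wounds. The enzyme transcript was thus the more abundant of the pair in each treated library and the less abundant in each control. Likewise the ratio of Fdps to Insig1 was 3.59, 2.38 and 4.14 in DST-MNs wounds, against 1.28, 1.26 and 1.11 in control wounds. A ratio shows unequal change and does not say which of the genes moved.

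Insig2, the related retention protein, averaged 24.8 ± 3.94 CPM in DST-MNs wounds and 23.1 ± 1.83 CPM in control wounds, with a log2 interval of -0.28 to 0.48. Srebf2, the SREBP gene most tied to cholesterol, had 77.6, 54.6 and 46.8 CPM in DST-MNs wounds, against 51.2, 56.0 and 65.9 CPM in control wounds. Its groups overlapped fully, with a log2 change of 0.05 (95% interval -0.44 to 0.54). Srebf1, whose products favour fatty acid synthesis, had 59.7, 31.5 and 33.9 CPM in DST-MNs wounds, against 30.1, 21.4 and 25.1 CPM in control wounds. All treated libraries lay above all controls, the lower ones narrowly, with DST-MNs replicate 1 far above the others. The log2 change of 0.71 (SE 0.28, edgeR adjusted p = 0.271) was 0.35 without that replicate. The counts of Srebf1 were fractional in all 6 libraries. Scap, the escort, averaged 69.1 ± 9.05 CPM in DST-MNs wounds and 57.7 ± 7.60 CPM in control wounds (log2 change 0.26, SE 0.15, edgeR adjusted p = 0.436). These values are transcript levels, and the cutting of SREBP proteins was not measured.

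**Figure D3:**
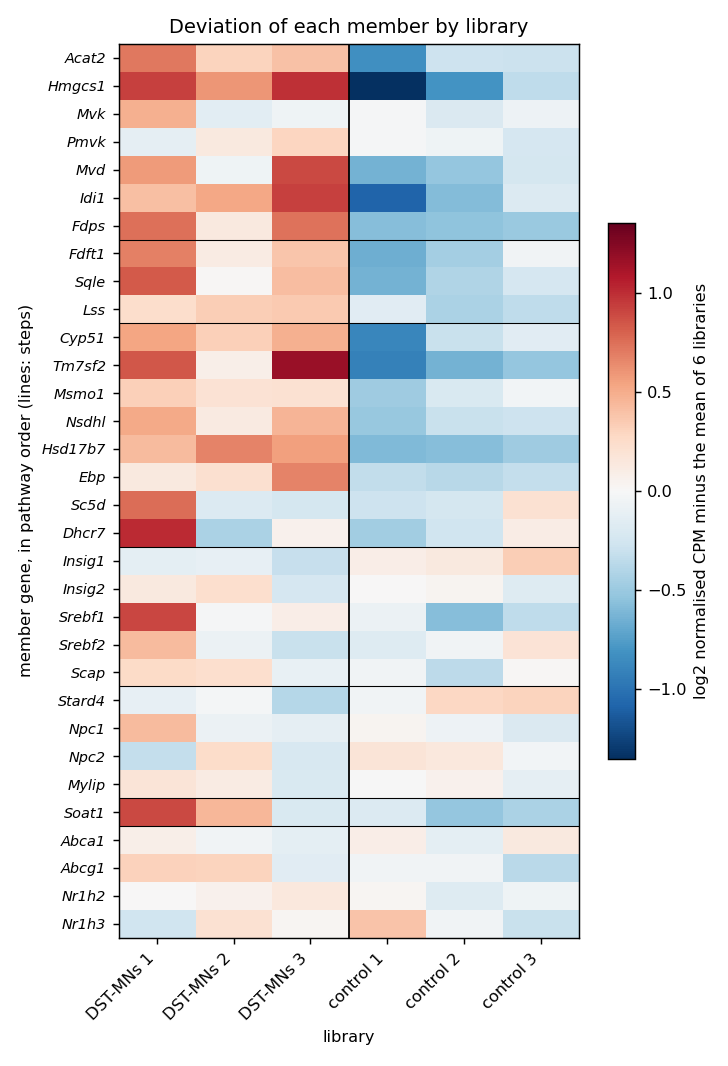
Each cell gives the log2 normalised CPM of a gene (rows, in pathway order, with lines between steps) in a library (columns, DST-MNs left of control) minus the mean of the 6 libraries. The enzymes in the upper part are mostly red in the DST-MNs libraries and blue in the controls, with the palest treated column in DST-MNs 2, while below them Insig1 has the opposite order and Stard4 is mixed, with control 1 below DST-MNs 2.

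Of the transport and uptake genes, 0 of 4 passed the threshold with edgeR or DESeq2. At an unadjusted p below 0.05, where 6.88% of all genes were lower, 1 was lower. That was Stard4, a cytosolic carrier of sterol that SREBP also switches on, with 46.6, 49.3 and 38.4 CPM in DST-MNs wounds, against 48.6, 61.0 and 62.2 CPM in control wounds. Control replicate 1 lay among the treated libraries. Without control replicate 1 the log2 change was -0.46, and with all libraries it was -0.36 (SE 0.15, edgeR adjusted p = 0.297). That was the lowest log2 change of the 32 after that of Insig1, so a ratio to Hmgcs1, the highest, restates the difference. The ratio of Hmgcs1 to Stard4 in TPM was 8.04, 6.39 and 10.7 in DST-MNs wounds, against 1.66, 1.91 and 2.56 in control wounds.

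Npc2 and Npc1 pass cholesterol out of the lysosome, the soluble protein handing it to the membrane protein. Npc2 had the highest TPM of the 32 in both groups, 694 ± 166 in DST-MNs wounds and 700 ± 30.3 in control wounds (SD, n = 3 each). Its CPM were 412, 614 and 444 in DST-MNs wounds, against 583, 567 and 502 in control wounds, with DST-MNs replicate 2 above all controls and the other treated libraries below them. Npc1 averaged 67.2 ± 15.1 CPM in DST-MNs wounds and 59.6 ± 4.97 CPM in control wounds, and Mylip, a ubiquitin ligase that removes lipoprotein receptors and is switched on by LXR, averaged 69.3 ± 9.41 CPM in DST-MNs wounds and 66.7 ± 4.24 CPM in control wounds. The log2 intervals of all 3 genes held 0, from -0.62 to 0.28 for Npc2, from -0.24 to 0.59 for Npc1 and from -0.26 to 0.37 for Mylip.

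Soat1, which esterifies cholesterol for storage, had 51.9, 38.1 and 24.2 CPM in DST-MNs wounds, against 24.5, 19.5 and 20.8 CPM in control wounds. DST-MNs replicate 1 was highest and DST-MNs replicate 3 lay among the controls in CPM, while in TPM it lay just above them (20.98 TPM, against at most 19.96 TPM in control wounds). The log2 change was 0.82 (SE 0.28, 95% interval 0.16 to 1.48) and missed the threshold (edgeR adjusted p = 0.22, DESeq2 adjusted p = 0.0899). It was 0.52 when DST-MNs replicate 1 was left out and 1.07 when DST-MNs replicate 3 was.

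Of the efflux genes, 0 of 4 were past the threshold with edgeR or DESeq2 and 0 at an unadjusted p below 0.05. Abca1, the pump that loads cholesterol onto lipid-poor apolipoprotein and a leading LXR target, had 279, 254 and 239 CPM in DST-MNs wounds, against 281, 240 and 289 CPM in control wounds. The groups overlapped, and the 95% interval of the log2 change, -0.38 to 0.25, does not reach the change of Hmgcs1. Abcg1, the pump for mature lipoprotein particles, had 109, 109 and 79.2 CPM in DST-MNs wounds, against 85.5, 85.2 and 68.3 CPM in control wounds (log2 change 0.32, SE 0.17, edgeR adjusted p = 0.4). Nr1h2 and Nr1h3, which encode the LXR receptors, had log2 intervals of -0.11 to 0.38 and -0.55 to 0.47. Nr1h3 averaged 27.6 ± 4.53 CPM in DST-MNs wounds and 28.3 ± 6.92 CPM in control wounds, and Nr1h2 averaged 58.6 ± 2.84 CPM in DST-MNs wounds and 53.4 ± 3.72 CPM in control wounds.

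Within the groups the enzymes varied by library. Of the 18 enzymes, 12 had their lowest treated level in DST-MNs replicate 2 and 10 their highest in DST-MNs replicate 1. In the controls, 14 were lowest in replicate 1 and 14 highest in replicate 3. The order over all genes is not given here, so this one cannot be read as particular to the enzymes. Summed over the 18 enzymes the level was 914, 692 and 801 TPM in DST-MNs wounds, against 342, 395 and 460 TPM in control wounds. Summed over the 14 other members, of which Npc2 made up the larger part, it was 1049.6, 1271 and 881 TPM in DST-MNs wounds, against 1031, 1017 and 990.5 TPM in control wounds. The TPM scale itself ran higher in treated wounds, by a median of 0.15 on the log2 scale over all genes tested, so the CPM values are the ones to compare within a gene.

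Markers of skin appendages and epidermis also differed between the libraries. The 10 sebaceous gland markers, of which 5 rose with edgeR and 9 with DESeq2, summed to 498 to 568 TPM in DST-MNs wounds, against 4.20 to 18.9 TPM in control wounds, and 7 of them were at 0 in at least 1 control, with Awat1, Awat2 and Cyp2b12 among these. All 9 basal keratinocyte markers had a level above that of the controls on average, with a median log2 change of 2.82. Of these 0 passed with edgeR and 8 were higher at an unadjusted p below 0.05, while Itgb4, Lama3 and Lamb3 rose with DESeq2. They summed to 3894, 344 and 1284 TPM in DST-MNs wounds, against 214, 53.0 and 213 TPM in control wounds, with Krt15 at 0 in a control. Of 11 markers of differentiated keratinocytes 10 were listed and 8 tested, with a median log2 change of 4.72. Of these 0 passed with edgeR and 7 were higher at an unadjusted p below 0.05, while 7 rose with DESeq2. They summed to 56.8 to 556 TPM in DST-MNs wounds, against 7.98 to 66.6 TPM in control wounds, with Ivl and Casp14 at 0 in all controls. Of 8 hair follicle markers 5 were tested, with a median log2 change of 5.17, and 0.48 without DST-MNs replicate 1. Of these 0 passed with edgeR and 3 were higher at an unadjusted p below 0.05, while Krt75 and Sostdc1 rose with DESeq2. The 8 summed to 1026, 13.3 and 25.0 TPM in DST-MNs wounds, against 13.0, 0.59 and 3.30 TPM in control wounds, with Krt71 among 5 at 0 in a control. In at least 1 treated library 3 of the 8 (Krt25, Krt27 and Krt73) were at 0 too. Thus DST-MNs replicate 1, which was highest for Dhcr7, Sc5d, Srebf1 and Soat1, also had the highest sums of keratinocyte and hair follicle markers. It was highest as well for adipocyte markers (884 TPM) and macrophage markers (7032 TPM). The part of these cell types in the enzyme levels was not tested.

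**Figure D4:**
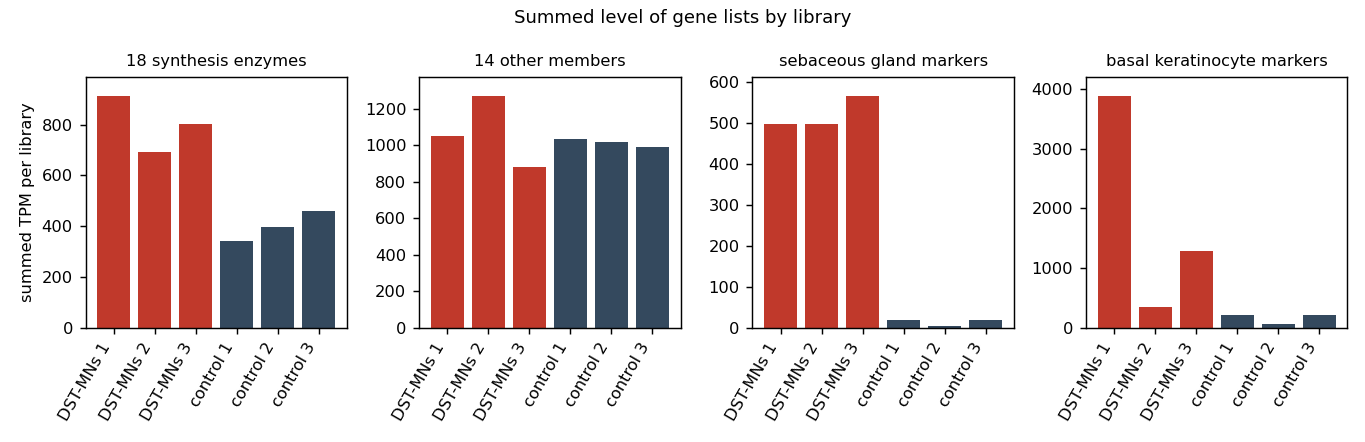
Bars from 0 give the summed TPM of 4 gene lists in each library, DST-MNs in red and control in dark, with a separate vertical scale for each list. The 18 enzymes and the sebaceous markers are higher in every DST-MNs library than in every control, the 14 other members overlap between groups, and the basal keratinocyte markers reach 3894 TPM in DST-MNs 1 but 344 TPM in DST-MNs 2.

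The summed levels of the other cell types overlapped between groups. In these lists edgeR called 0 genes. At an unadjusted p below 0.05 none was higher and 2 were lower, where 9.8% of all genes were higher and 6.88% lower. DESeq2 called 1, the fibroblast marker Pdgfra, as lower, where it had 2.73% of all genes as lower. Macrophage markers, 9 of 9 tested and none at 0, summed to 4308 to 7032 TPM in DST-MNs wounds, against 4306 to 5517 TPM in control wounds. Adipocyte markers, 6 of 8 tested and none at 0, summed to 292 to 884 TPM in DST-MNs wounds, against 269.6 to 533 TPM in control wounds. Fibroblast markers, 6 of 6 tested and all of them lower on average (median log2 change -0.38), summed to 23753 to 28862 TPM in DST-MNs wounds, against 25279 to 35441 TPM in control wounds, so dermal transcripts were abundant in every library. Skeletal muscle markers, 6 of 6 tested, summed to 5805 to 7205 TPM in DST-MNs wounds, against 7623, 22.7 and 408 TPM in controls 1, 2 and 3, with Ckm and Myh4 at 0 in a control. Their part in the results was not tested either. Library totals ran from 12545206 to 13818548 counts.

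Other genes of sterol handling, 30 on a list that holds none of the 32, were listed as well. Of 29 tested, 0 passed the threshold, and the median log2 change was -0.03. At an unadjusted p below 0.05, 3 were higher and 1 lower, where 9.8% of all genes were higher and 6.88% lower. DESeq2 called Lipa as higher and Lrp1 as lower. Lipa, the lysosomal acid lipase that frees cholesterol from its esters, had 269, 240.0 and 215 CPM in DST-MNs wounds, against 149.5, 156 and 142 CPM in control wounds. Its groups did not overlap (log2 change 0.69, SE 0.13, edgeR adjusted p = 0.0796). Lrp1, a large receptor that takes up remnant lipoproteins and other cargo, had 728, 1020.3 and 692 CPM in DST-MNs wounds, against 1268, 1253 and 1172 CPM in control wounds (log2 change -0.60, SE 0.19, edgeR adjusted p = 0.203). Gramd1c and Gramd1b, which carry sterol from the plasma membrane to the endoplasmic reticulum, had log2 changes of 0.75 (SE 0.22) and 0.46 (SE 0.16), with edgeR adjusted p of 0.18 and 0.245. Soat2, the second esterifying enzyme, had too few reads to be tested.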

How the data were processed

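Messenger RNA libraries from wound tissue (TRIzol extraction, paired reads on a DNBSEQ-T7, per the labels' protocols) were grouped by sample title and matched to table columns by library name. The expected counts deposited by the authors are unscaled estimated read counts per gene, 90.6% to 91.4% of them whole, per the file headers and values. TPM and FPKM values are scaled by length and library, per the file headers. The normalised counts deposited by the authors are a signal, the counts divided by 1 factor per library. FPKM and the signal were not tested. Reads were handled on mRatBN7.2, per the submitters' processing notes; aligner and counter were not given in the sources used here. Genes sharing reads are therefore uncertain.

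Counts were rounded, filtered with filterByExpr (minimum 10), scaled with TMM and tested with edgeR 4.0.16 (quasi-likelihood, R 4.3.3) over 14427 genes, with p adjusted by the method of Benjamini and Hochberg and called below 0.05. Intervals are log2 change plus or minus the t quantile times the SE, which is the change divided by the square root of F. The script was tested on simulated data. Alternatives were other scalings and filters, DESeq2 1.42.0, limma 3.58.1 (voom, and trend on TPM), a replicate block and each library left out. Same-numbered libraries were not paired: correlations of their deviations were -0.02, 0.10 and 0.11. The 32 genes, the lists and the tests were chosen with earlier results of these data known, and of the other sterol genes the 4 with the smallest p are named. The promoters to print and the motifs were chosen after the values were seen. Library totals are in the report, and each group has 3 libraries. P-values measure the spread between libraries labelled biological replicates.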

Additional observations from a re-analysis of the deposited data

How the results depend on the processing

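Counts of calls depended on the test. Over all genes 112 changed in the fit described, 38 with at least 10 counts required in every library, 1018 with DESeq2 and 14 to 402 with 1 library left out, where the 402 came without control replicate 1 and the other 5 gave 14 to 53. Of the 32 genes 1 changed, and 0 without a count filter or with at least 10 counts required in every library, 3 with total counts, 4 and 2 with log2(TPM + 1) and log2(TPM + 0.1), 13 with DESeq2 and 0 to 2 with 1 library left out. The 3 with total counts were Hmgcs1, Fdps and Hsd17b7. Over all genes 134 of 14427 changed with total counts, and 136 and 110 of 13849 with log2(TPM + 1) and log2(TPM + 0.1). Without a count filter 106 of 18614 changed. Of the other sterol genes 0 changed, and 2 with DESeq2. The median log2 change of the 32 was 0.50, 0.63 with total counts and 0.33 to 0.58 with 1 library left out, and lowest without DST-MNs replicate 1. Total counts raised the median of all genes to 0.12. With the replicate block 123 genes changed, 1 of the 32 (Idi1 in place of Hsd17b7), with a median of 0.45. It called 4 basal keratinocyte markers (Krt5, Krt14, Lama3 and Tp63), 1 differentiated keratinocyte marker (Flg) and 1 hair follicle marker (Krt75), of which edgeR without it called 0.

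Changes of sign were all in genes far from the threshold. With 1 library left out, Mvk ran from -0.013 to 0.35, Sc5d from -0.13 to 0.46, Srebf2 from -0.19 to 0.21, Npc1 from -0.037 to 0.28, Mylip from -0.029 to 0.17 and Nr1h3 from -0.18 to 0.17. With total counts, log2(TPM + 1) and log2(TPM + 0.1), Abca1 stood at 0.053, 0.077 and 0.079 and Nr1h3 at 0.072, 0.13 and 0.13. The causes were not tested. Of 576 refitted values for 36 genes, 529 kept their sign and side of the threshold. For every gene but Hsd17b7, keeping its side meant staying uncalled. Hsd17b7, the only one called in the main fit, lost its call in 9 of the 16 alternatives.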
